A study of Mus musculus with 14 samples.

Results

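Cnot7 was knocked down in 4T1 cells with a pair of short hairpin RNAs, and the comparison described here sets the samples carrying one hairpin, sh74, against those carrying the other, sh75. The samples were chosen by their treatment labels: 2 were labelled for sh74 and 3 for sh75, 5 of the 14 samples in the series. 4T1 is a mammary tumor line derived from a BALB/c mouse. All 5 were 4T1 cells transduced with lentivirus and selected with puromycin, and the labels name no difference between them other than the hairpin. The other samples were 3 with a scrambled hairpin (shScramble), used below as the level for reference, and 3 vector control and 3 CNOT7 over-expression samples, which entered the estimate of the spread. Transcripts were measured on Affymetrix Mouse Gene 1.0 ST arrays and are given as log2 values after robust multi-array averaging (RMA). Every cell line here carried an integrated construct, and whether the samples of a hairpin came from separate transductions, separate cultures or 1 pool was not stated. The p-values below rest on the variation among these arrays, which may be technical.

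CNOT7 is a catalytic subunit of CCR4-NOT, the complex that shortens the poly(A) tails of messenger RNAs and so starts their decay. The complex is brought to its transcripts by RNA-binding proteins, by the BTG and TOB adaptors, and by the Argonaute proteins that carry small RNAs. A short hairpin RNA is itself processed by Dicer into a small RNA that Argonaute loads, and the bases next to its 5′ end, the seed, guide it to transcripts. A pair of hairpins against the same gene shares its intended target but not its seed.

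The mature antisense strands of both hairpins are shown because the hairpin is the difference that the treatment labels name. Numbers in the sample titles separate the groups as well and are described below. They are written 5′ to 3′, with the seed (bases 2 to 8) in capitals.
shCnot7-74: tAAGTACTgcagaatagaagg
shCnot7-75: aACAAGTCtacattacaccgc
Both strands were 21 bases long. The strands of shCnot7-74 and shCnot7-75 held 8 and 9 G or C bases, 38.1% and 42.9%. Aligned from their 5′ ends they had the same base at 2 of 21 positions, 1 of them within the seed, and their longest shared run was 4 bases. None of the 1679 mature mouse miRNAs in RefSeq (a table named for assembly GRCm38.p6) had the seed of either hairpin (0 matches for each). Transcript sequences were not used here, so matches to either seed in messenger RNAs were not counted.

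Array medians over the 21789 tested probe sets, those with exactly 1 gene symbol, lay between 6.31 and 6.38 on the log2 scale in all 14 samples. Olfactory receptor probe sets, a measure of background, had medians of 3.93 to 3.98. The keratin genes Krt8 and Krt18 were at 11.38 to 12.29 in each of the 8 hairpin samples, and Cdh1, E-cadherin, was at 10.29 to 11.28. These epithelial genes were thus high in every hairpin sample, whereas Epcam and Esrp1, given below, were low in some. Of the defining markers of blood, vessel, stroma and fat cells, Ptprc, Cd3e, Itgam, Adgre1, Pecam1, Cdh5, Kdr, Tek, Dcn, Lum, Adipoq, Plin1 and Fabp4 lay between 3.33 and 6.04, whereas Csf1r (5.68 to 7.44), Col1a1 (6.66 to 6.83) and Pdgfra (7.12 to 9.25) reached higher. The samples were not uniform within a hairpin. Epcam, an epithelial adhesion protein, was at 5.98 and 10.01 in the sh74 samples, 9.69, 7.85 and 7.88 in the sh75 samples and 9.64, 9.65 and 8.41 in the shScramble samples. Esrp1, an epithelial splicing regulator, was at 5.65 and 10.65 with sh74, 10.79, 6.50 and 6.49 with sh75, and 10.76, 10.56 and 5.21 with shScramble. Each group thus held samples with high and samples with low Esrp1. A score made of 37 mesenchymal minus 41 epithelial genes, each centred on its mean, was 0.97 and -0.84 in the sh74 samples, -0.49, 0.74 and 0.70 in the sh75 samples and -0.53, -0.79 and 0.58 in the shScramble samples. The 2 sh74 samples were at least 2-fold apart at 674 probe sets, and the 3 sh75 samples spanned at least 2-fold at 670. At 30 of the 674 the sh74 and sh75 samples still did not overlap, against 4912 of the 21789 tested (22.5%). A wide gap between the sh74 samples itself makes overlap likelier, so the smaller share is a description only.

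Cnot7, the gene both hairpins were made against, was lower than in every shScramble sample with either hairpin, and higher with sh74 than with sh75 by the measured values. Cnot7 stood at 8.71 and 9.33 in the sh74 samples, at 7.52, 8.51 and 8.07 in the sh75 samples, and at 10.44, 10.33 and 10.20 in the shScramble samples (log2 values). The lowest sh74 sample lay above the highest sh75 sample, and no sample of either hairpin reached the shScramble range. Group means were 9.02 ± 0.44 (SD, n = 2) for sh74, 8.03 ± 0.50 (SD, n = 3) for sh75 and 10.32 ± 0.12 (SD, n = 3) for shScramble. By these means 40.4% of the shScramble level remained with sh74 and 20.4% with sh75. The difference between the hairpins was 0.98 on the log2 scale (SE 0.29, 95% confidence interval 0.36 to 1.61), a ratio of 1.98. It did not pass the limma test across all probe sets (adjusted p = 0.279), and an exact permutation test of the 10 arrangements of these 5 samples gave p = 0.2 (two-sided, the smallest p this design allows is 0.1). Against shScramble, the log2 difference was -1.31 for sh74 (adjusted p = 0.279) and -2.29 for sh75 (adjusted p = 0.00911).

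Across all genes the hairpins differed at few transcripts. With limma's moderated test and Benjamini-Hochberg adjustment over 21789 probe sets, 38 passed at an adjusted p under 0.05, which is 0.174% of those tested. Of these, 24 were higher with sh74 (0.11% of those tested) and 14 lower (0.0643%). An unadjusted p under 0.05 was reached by 1946. The differences of the 38 ranged in size from 0.43 to 1.91 on the log2 scale, and in all 38 the sh74 and sh75 samples did not overlap, as was so for 4912 probe sets, 22.5% of all tested. A difference of at least 2-fold was measured at 164 probe sets, 81 higher and 83 lower with sh74, and 17 of these passed the test. The median difference over all probe sets was 0.0028. The number of calls depended on single samples: it was 15 without sh74 replicate 1 and 53 without sh74 replicate 2, 19, 18 and 14 without each sh75 sample in turn, and 15, 12 and 17 without each shScramble sample in turn. Of the 38, 6 passed in all of these 8 fits (Gpr137b, Gpr137b-ps, Chordc1, Tmem170b, Arl15 and 9530068E07Rik). All 38 kept their direction in them, which was fixed beforehand: where the sh74 and sh75 samples do not overlap, leaving out 1 sample cannot reverse the difference.

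**Figure D1:**
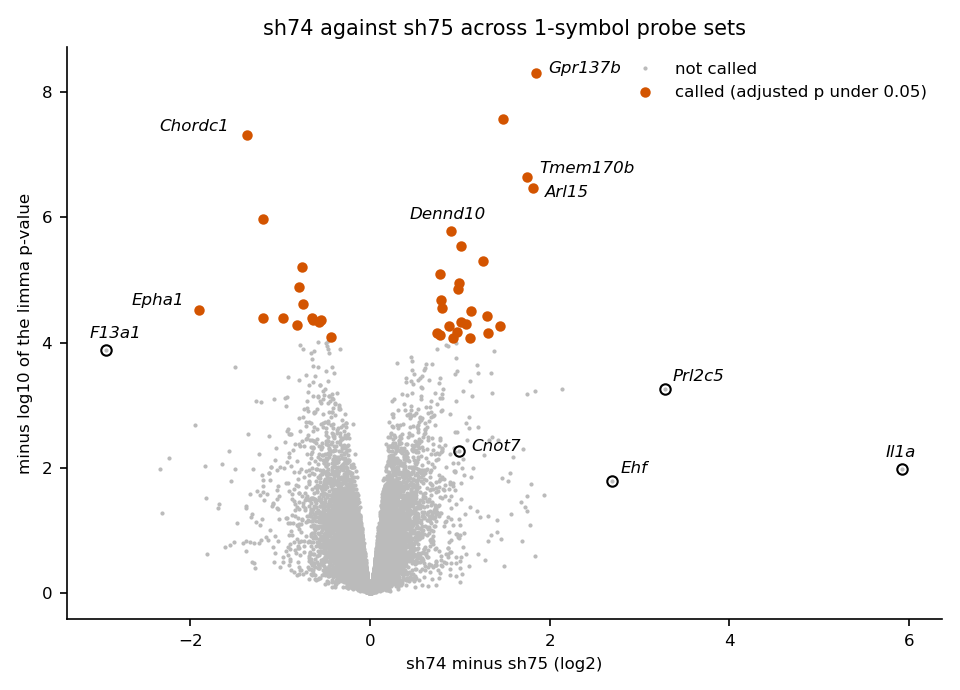
Difference between hairpins for each of the 21789 probe sets with 1 gene symbol (x axis: sh74 minus sh75, log2; y axis: minus log10 of the limma p-value). Orange points are the 38 probe sets called at an adjusted p under 0.05; open circles mark Cnot7 and 4 of the largest differences, none of which was called.

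The called genes were sorted by where each hairpin lay relative to the 3 shScramble samples. For 21 of the 38 calls (55.3%) all samples of one hairpin lay above and all samples of the other below every shScramble sample, whereas this was so for 187 of the 4912 probe sets (3.81%) at which the hairpins did not overlap. In another 9 calls (23.7%, against 34.9% of the 4912) only the sh74 samples lay apart from shScramble, and in 7 (18.4%, against 18.4%) only the sh75 samples did. Both hairpins lay on the same side of shScramble in 1 call, Hipk3 (2.63%, against 3.03%). In 0 calls did both hairpins overlap the shScramble range, so that neither stood wholly apart from it, against 1957 of the 4912 (39.8%). The calls were selected for a large difference between hairpins beside a spread that included shScramble. Such a selection itself makes it likelier that a hairpin lies apart from shScramble, so these shares are a description and no test. Of the 38 calls, 2 also passed for sh74 against shScramble, a comparison with 2 calls in all (0.00918% of those tested), and 13 also passed for sh75 against shScramble, which had 20 calls in all (0.0918%). These comparisons share the sh74, sh75 and shScramble samples with the one between the hairpins, so the overlap is a description. Whether a transcript responded to loss of Cnot7 or to something else about a hairpin cannot be told apart for a gene that moved with 1 hairpin alone.

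Among the genes with the hairpins on opposite sides of shScramble, Gpr137b, which encodes a lysosomal membrane protein that takes part in mTORC1 signaling, had the smallest p of all. Gpr137b was at 9.56 and 9.62 in the sh74 samples, 7.72, 7.82 and 7.70 in the sh75 samples and 8.57, 8.80 and 8.32 in the shScramble samples (log2). All sh74 samples were above and all sh75 samples below the shScramble range, with little spread within either hairpin. The difference between hairpins was 1.85 (SE 0.12, adjusted p = 0.000109, limma), a 3.60-fold ratio, made of 1.03 above shScramble with sh74 (adjusted p = 0.0229) and 0.82 below it with sh75 (log2 difference -0.82, adjusted p = 0.0163). It was the 1 gene called in all 3 comparisons. The vector control and over-expression means of Gpr137b were 8.10 and 8.14, below every shScramble sample. The size of each part thus depends on the control used. The probe set of Gpr137b-ps, a copy annotated as a pseudogene whose signal cannot be told apart from that of Gpr137b here, was at 10.55 and 10.64 with sh74, 9.11, 9.11 and 9.12 with sh75 and 9.92, 10.17 and 9.80 with shScramble. The sh74 samples were again above and the sh75 samples below shScramble (log2 difference between hairpins 1.48, SE 0.11, adjusted p = 0.000295).

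Tmem170b, which encodes a transmembrane protein, and Arl15, an Arf-like small GTPase, shared another form of this pattern. Most of the difference, taken from shScramble, lay on the sh75 side. Tmem170b was at 8.62 and 8.43 with sh74, 6.91, 6.63 and 6.81 with sh75 and 8.12, 8.21 and 8.28 with shScramble (log2). The sh74 samples sat just above shScramble, and every sh75 sample more than 1 log2 unit below it. Its difference between hairpins was 1.74 (SE 0.16, adjusted p = 0.00126), against log2 differences from shScramble of 0.32 with sh74 and -1.42 with sh75. The vector control and over-expression means of Tmem170b were 7.97 and 7.76, below every shScramble sample, so the size of each part depends on the control used. Those of Arl15 were 7.58 and 7.47. Arl15 was at 8.09 and 7.78 with sh74, 5.81, 6.30 and 6.27 with sh75 and 7.48, 7.71 and 7.70 with shScramble, a difference between hairpins of 1.81 (SE 0.17, adjusted p = 0.00151). Its log2 difference from shScramble was 0.30 with sh74 and -1.50 with sh75. Tmem170b and Arl15 passed in all 8 fits that left out 1 sample.

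Eogt and Epha1 belonged to the same class in opposite directions. Eogt encodes an endoplasmic reticulum enzyme that places O-linked N-acetylglucosamine on EGF domains of secreted and membrane proteins. It was at 9.71 and 10.05 with sh74, 8.46, 8.60 and 8.79 with sh75 and 9.57, 9.50 and 9.57 with shScramble (log2), a difference of 1.26 (SE 0.15, adjusted p = 0.0119). Epha1, a receptor tyrosine kinase for ephrins, had the largest called difference. Its level was 7.68 and 8.09 with sh74, 9.80, 9.60 and 9.99 with sh75 and 8.12, 8.26 and 8.12 with shScramble, so that the sh75 samples stood far above the other groups while the higher sh74 sample lay just below the nearest shScramble sample. The log2 difference was -1.91 between hairpins (SE 0.28, adjusted p = 0.0360), -0.28 for sh74 and 1.63 for sh75 against shScramble. The Epha1 call was lost in each of the 8 fits that left out 1 sample, with differences from -2.12 to -1.70, and the Eogt call was kept in 7 of them, with differences from 1.09 to 1.43.

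Cpne3, Lcor and Styk1 completed the larger differences of this class. Cpne3, a calcium-dependent phospholipid-binding copine, was at 10.22 and 10.08 with sh74, 8.50, 9.06 and 8.97 with sh75 and 9.88, 9.54 and 9.94 with shScramble (difference 1.30, SE 0.20, adjusted p = 0.0383). Lcor, a corepressor of nuclear receptors, was at 9.04 and 8.93 with sh74, 8.17, 7.64 and 7.77 with sh75 and 8.65, 8.68 and 8.22 with shScramble (difference 1.12, SE 0.17, adjusted p = 0.0360). Styk1, a membrane protein with a kinase domain, was at 7.50 and 7.55 with sh74, 6.55, 6.24 and 6.44 with sh75 and 6.88, 7.12 and 6.92 with shScramble (difference 1.11, SE 0.19, adjusted p = 0.0495). In these genes the sh74 samples were the highest and the sh75 samples the lowest of the 8 hairpin samples. The Cpne3 and Styk1 calls were kept in 0 of the 8 fits without 1 sample, and the Lcor call in 2. The Styk1 call was also lost with the title number as a random block (adjusted p = 0.0525) and with the mesenchymal minus epithelial score as a covariate (adjusted p = 0.0515).

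Stard5 and Cyb561d2 ran the other way. Stard5, which encodes a START-domain protein that binds sterols and bile acids, was at 6.82 and 6.78 with sh74, 7.80, 7.56 and 7.41 with sh75 and 6.96, 6.87 and 6.88 with shScramble, a difference of -0.79 (SE 0.11, adjusted p = 0.0215) that lay mostly on the sh75 side. Cyb561d2, a membrane protein of the cytochrome b561 family, was at 7.32 and 7.51 with sh74, 8.10, 7.84 and 7.94 with sh75 and 7.70, 7.75 and 7.75 with shScramble, a difference of -0.55 (SE 0.08, adjusted p = 0.0383) split between both sides. The other called genes of this class were outside the rule for naming genes and were chosen after their values were seen: Rbm41, Yipf6, Kif23, Xiap, Cbl, Maml2, Phlpp2 and Zfyve16 were higher with sh74, by 0.77 (Phlpp2) to 0.99 (Yipf6), and Naa38 was lower, by a log2 difference of -0.43. Among them were Xiap, which inhibits caspases, Cbl, a ubiquitin ligase for receptor tyrosine kinases, and Phlpp2, a phosphatase of AKT kinases. Kif23, a kinesin that cytokinesis requires, was at 11.15 and 11.44 with sh74, 10.66, 10.27 and 10.59 with sh75 and 11.10, 11.15 and 10.98 with shScramble, so that 1 sh74 sample barely exceeded the highest shScramble sample. The Rbm41 call was kept in 6 of the 8 fits without 1 sample, those of Stard5, Yipf6 and Kif23 in 4, those of Cyb561d2 and Xiap in 2, that of Zfyve16 in 1 and those of Cbl, Maml2, Phlpp2 and Naa38 in 0. With the title number as a random block the Naa38 and Zfyve16 calls were lost (adjusted p = 0.0546 and 0.0525), and with the score as a covariate that of Naa38 was (adjusted p = 0.0518).

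**Figure D2:**
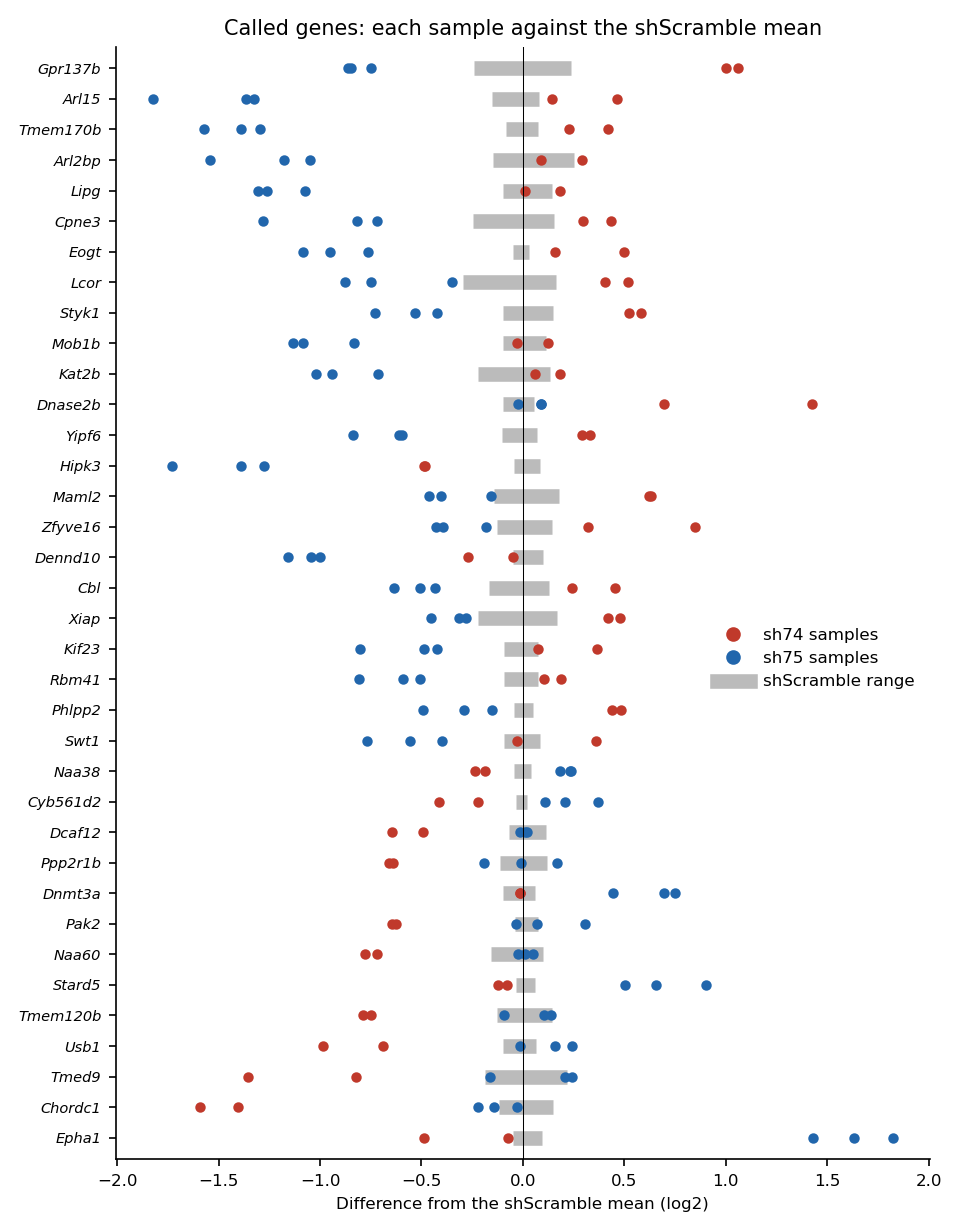
The 36 called genes that could be named, from the largest rise (top) to the largest fall (bottom) between hairpins. Points are single samples (sh74 red, sh75 blue) as log2 difference from the mean of the 3 shScramble samples, and the gray bar is the range of those samples. For Gpr137b the 2 sh74 samples lay about 1 above and the 3 sh75 samples about 0.8 below the shScramble mean.

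Chordc1, a co-chaperone of HSP90, was the strongest of the calls in which sh74 alone stood apart. It was at 8.61 and 8.80 in the sh74 samples, 10.06, 9.98 and 10.18 in the sh75 samples and 10.35, 10.18 and 10.08 in the shScramble samples (log2). The sh75 and shScramble samples overlapped and both sh74 samples were more than 1 log2 unit below them. The difference was -1.37 between hairpins (SE 0.11, adjusted p = 0.000356), -1.50 for sh74 against shScramble (adjusted p = 0.000413) and -0.13 for sh75 against shScramble (adjusted p = 0.779). Chordc1 passed in all 8 fits that left out 1 sample. No other HSP90 or HSP70 chaperone or co-chaperone of the 25 measured was called, and their median difference was -0.033. Hsp90aa1, which encodes the inducible HSP90, was at 12.93 and 12.98 with sh74, 12.77, 12.65 and 12.82 with sh75 and 12.86, 13.003 and 12.78 with shScramble (difference 0.21, adjusted p = 0.456).

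All but 1 of the other calls in which sh74 alone stood apart were also lower with sh74. Tmed9, a cargo receptor of the early secretory pathway, was at 7.89 and 7.35 with sh74, 8.92, 8.55 and 8.95 with sh75 and 8.93, 8.68 and 8.53 with shScramble (difference -1.19, SE 0.18, adjusted p = 0.0383). Usb1, the exonuclease that trims U6 small nuclear RNA, was at 7.87 and 8.17 with sh74, 9.10, 8.84 and 9.01 with sh75 and 8.89, 8.92 and 8.76 with shScramble (difference -0.96, SE 0.15, adjusted p = 0.0383). In both genes the sh75 samples overlapped the shScramble samples. Naa60, an amino-terminal acetyltransferase of the Golgi, was at 8.95 and 9.01 with sh74, 9.74, 9.70 and 9.77 with sh75 and 9.57, 9.82 and 9.79 with shScramble (difference -0.76, SE 0.10, adjusted p = 0.0137). Pak2, a kinase activated by Rac and Cdc42, was at 10.75 and 10.77 with sh74, 11.70, 11.36 and 11.46 with sh75 and 11.35, 11.47 and 11.36 with shScramble (difference -0.75, SE 0.11, adjusted p = 0.0327). All 3 sh75 samples of Naa60 lay within the shScramble range, as did 2 of the 3 for Pak2, the other lying above it. Tmem120b, Ppp2r1b, a scaffold subunit of protein phosphatase 2A, and Dcaf12, a substrate receptor of CUL4 ubiquitin ligases, had differences of -0.82, -0.64 and -0.57. Dnase2b, an acid DNase, was the one gene of this class that was higher: it was at 6.68 and 5.95 with sh74, 5.23, 5.35 and 5.35 with sh75 and 5.31, 5.30 and 5.16 with shScramble (difference 1.01, SE 0.16, adjusted p = 0.0383), with the sh74 samples well apart from each other. Of these 8 genes, the Naa60 call was kept in 6 of the 8 fits without 1 sample, and no other in more than 2.

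The calls in which sh75 alone stood apart were 6 genes lower and 1 higher with sh75 than with sh74 and shScramble. Dennd10, a DENN-domain protein of endosomes that lay outside the naming rule and was chosen after its values were seen, was at 9.51 and 9.28 with sh74, 8.40, 8.51 and 8.55 with sh75 and 9.65, 9.51 and 9.50 with shScramble, a difference between hairpins of 0.91 (SE 0.10, adjusted p = 0.00522). Kat2b, a histone acetyltransferase, was at 8.04 and 7.92 with sh74, 6.91, 7.14 and 6.84 with sh75 and 7.63, 7.99 and 7.95 with shScramble, a difference of 1.01 (SE 0.12, adjusted p = 0.00772). In both genes the sh74 samples overlapped shScramble and the sh75 samples lay below. Arl2bp, a partner of the small GTPase ARL2, was at 11.03 and 11.23 with sh74, 9.40, 9.77 and 9.89 with sh75 and 11.20, 10.80 and 10.84 with shScramble (difference 1.45, SE 0.23, adjusted p = 0.0389). Lipg, endothelial lipase, was at 9.61 and 9.44 with sh74, 8.36, 8.17 and 8.13 with sh75 and 9.39, 9.57 and 9.33 with shScramble (difference 1.31, SE 0.21, adjusted p = 0.0449). Mob1b, which activates the LATS kinases of the Hippo pathway, was at 9.37 and 9.53 with sh74, 8.32, 8.27 and 8.57 with sh75 and 9.52, 9.39 and 9.30 with shScramble (difference 1.06, SE 0.17, adjusted p = 0.0389). With sh75 these transcripts were at 41.9% (Arl2bp) to 53.9% (Kat2b) of their shScramble level by the group means.

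Dnmt3a, a de novo DNA methyltransferase, was the gene of this class that was higher with sh75. It was at 7.57 and 7.57 with sh74, 8.33, 8.03 and 8.27 with sh75 and 7.62, 7.48 and 7.64 with shScramble (difference -0.64, SE 0.10, adjusted p = 0.0383). The Dnmt3a call was lost under trend and robust moderation, median centring and quantile normalization (limma adjusted p = 0.0992, 0.063 and 0.0771). Swt1, named after its values were seen, was the last of the class (difference 0.74). Hipk3, a nuclear protein kinase that lay outside the naming rule, was the single call in which both hairpins lay below shScramble, as Cnot7 did. It was at 10.43 and 10.44 with sh74, 9.19, 9.64 and 9.53 with sh75 and 10.87, 10.88 and 11.001 with shScramble, a difference between hairpins of 0.98 (SE 0.13, adjusted p = 0.0215). Against shScramble the log2 difference was -0.49 with sh74 (adjusted p = 0.445) and -1.47 with sh75 (adjusted p = 0.00113). The Dennd10 and Kat2b calls were kept in 7 of the 8 fits without 1 sample, the Hipk3 call in 4, the Dnmt3a call in 1 and the Arl2bp, Lipg and Mob1b calls in 0.

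**Figure D3:**
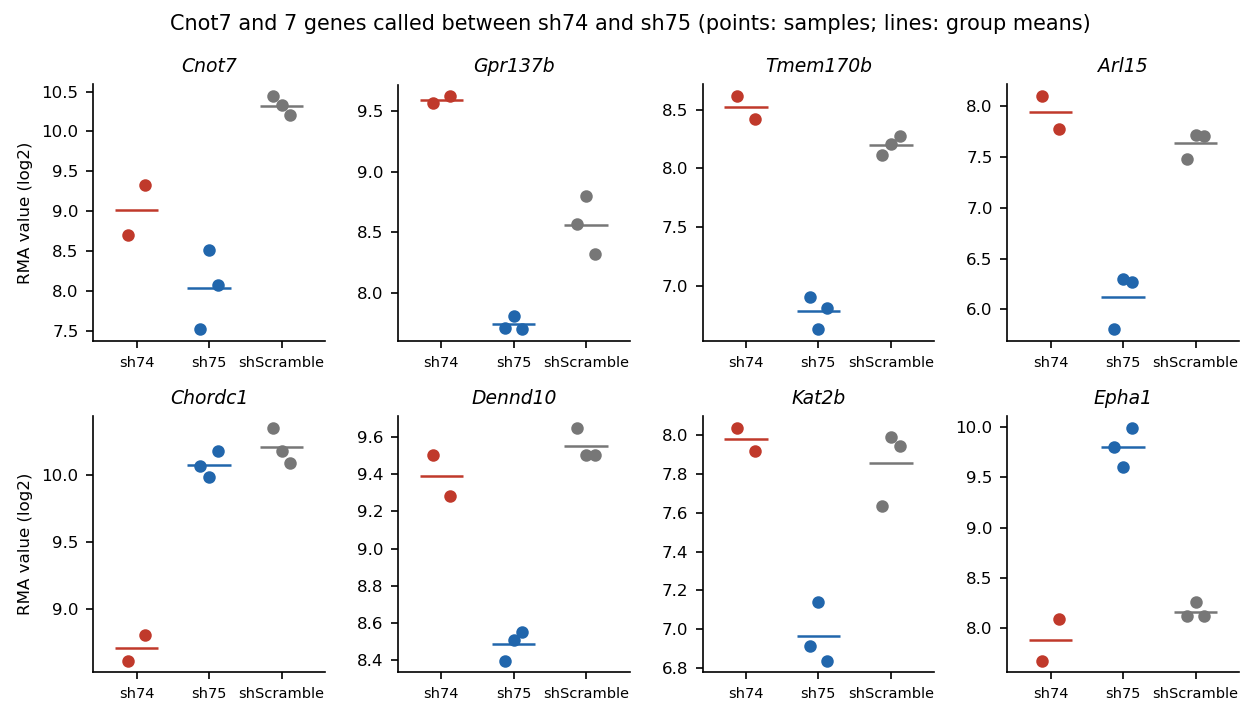
RMA log2 values of Cnot7 and 7 called genes in each sample (points) with group means (lines), for sh74 (2 samples), sh75 (3) and shScramble (3); each panel has its own y axis. Chordc1 was low with sh74 alone, Dennd10 and Kat2b were low with sh75 alone, Epha1 was high with sh75, and Gpr137b was above shScramble with sh74 and below it with sh75.

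The largest differences in size were mostly not among the calls. Il1a, which encodes the alarmin interleukin-1 alpha, differed most. It was at 11.27 and 11.76 in the sh74 samples, 6.52, 4.77 and 5.49 in the sh75 samples and 12.22, 12.29 and 7.14 in the shScramble samples (log2). The sh74 samples lay among the shScramble samples and all sh75 samples below them, while 1 shScramble sample was near the sh75 level. The difference was 5.92 (SE 1.93) and did not pass (adjusted p = 0.358). Esrp1 was low in that shScramble sample (5.21) and in the sh74 sample with Il1a at 11.27 (5.65), and with the mesenchymal minus epithelial score as a covariate the difference was 5.55 (SE 1.76, adjusted p = 0.26). The part of cell state in the Il1a levels was not tested. Prl2c5, a proliferin of the prolactin family with close copies in the mouse genome, was at 9.46 and 8.06 with sh74, 5.08, 5.76 and 5.61 with sh75 and 6.97, 7.78 and 6.02 with shScramble (difference 3.28, SE 0.68, adjusted p = 0.119). Ngfr, the p75 neurotrophin receptor, was at 9.82 and 10.06 with sh74, 8.15, 7.36 and 7.91 with sh75 and 8.22, 8.22 and 7.84 with shScramble (difference 2.14, SE 0.45, adjusted p = 0.119), with both sh74 samples above all others. Ehf, an ETS factor of epithelial cells, and Ltf, lactoferrin, had differences of 2.69 (SE 0.95, adjusted p = 0.414) and 1.94 (SE 0.76, adjusted p = 0.479), and their sh74 samples were 7.05 and 8.85 for Ehf and 6.003 and 7.59 for Ltf.

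In the other direction F13a1, the A subunit of coagulation factor XIII, was at 5.89 and 5.05 in the sh74 samples, 8.95, 7.99 and 8.28 in the sh75 samples and 5.28, 4.99 and 6.21 in the shScramble samples. It was high in all 3 sh75 samples and in no other hairpin sample, with a difference of -2.93 (SE 0.51) that missed the threshold (adjusted p = 0.0556). Pdgfc, a platelet-derived growth factor, was at 6.50 and 5.48 with sh74, 9.62, 7.89 and 7.46 with sh75 and 6.38, 5.62 and 6.73 with shScramble (difference -2.33, SE 0.76, adjusted p = 0.358). Sdc3, a cell surface proteoglycan, was at 6.21 and 6.03 with sh74, 7.85, 7.85 and 8.50 with sh75 and 6.60, 6.64 and 6.85 with shScramble (difference -1.94, SE 0.49, adjusted p = 0.202). For Pdgfc, as for F13a1, the sh74 and shScramble samples overlapped, while for Sdc3 the sh74 samples lay below them. Atp1b1, a subunit of the sodium pump, had a difference of -2.23 (SE 0.68, adjusted p = 0.307) and Car5b, a mitochondrial carbonic anhydrase, one of -2.31 (SE 1.07, adjusted p = 0.569). The Car5b value rested on 1 sh74 sample, at 5.90 against 9.49 in the other.

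**Figure D4:**
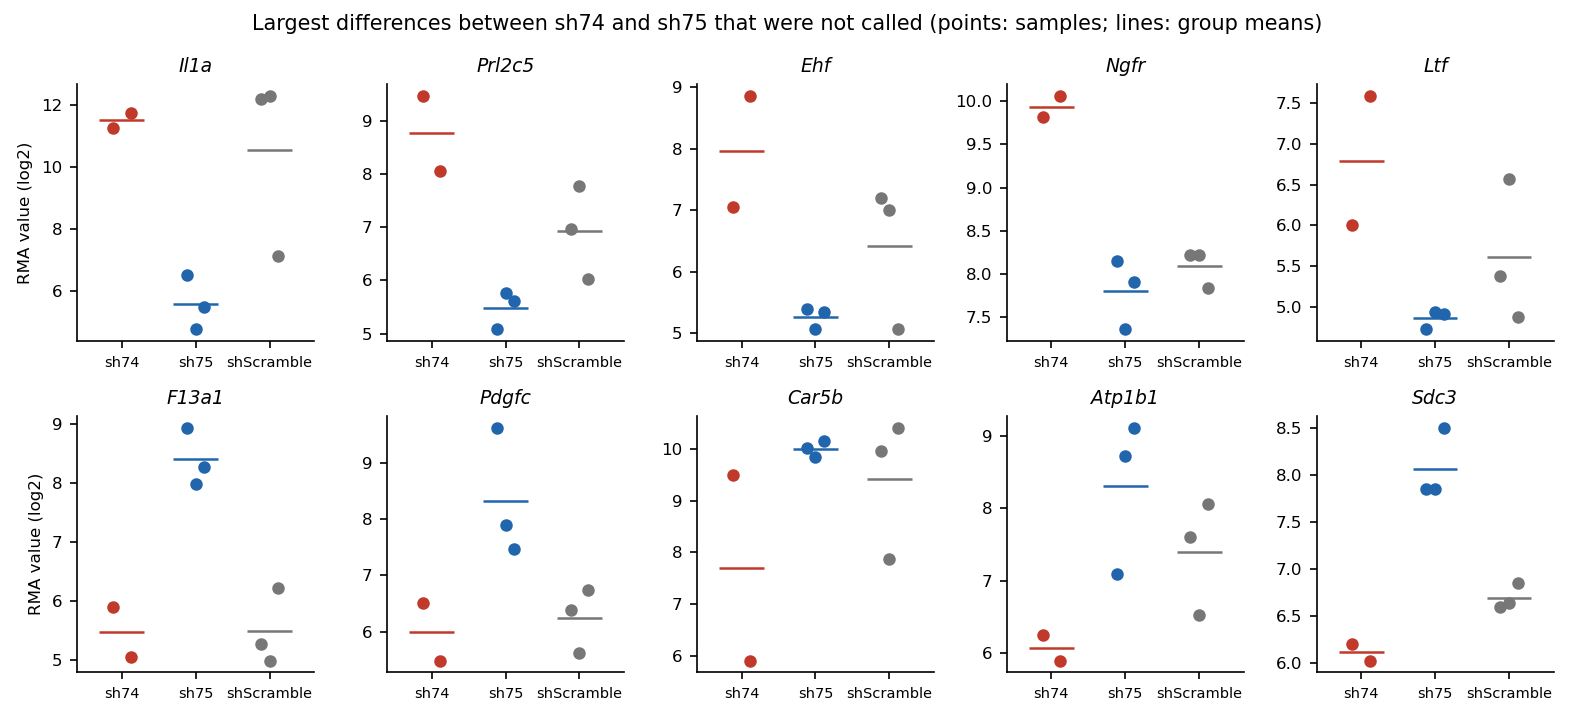
RMA log2 values in each sample (points) and group means (lines) for the 10 largest differences between hairpins that were not called, each panel with its own y axis. The sh75 samples of Il1a lay between 4.77 and 6.52, those of F13a1 between 7.99 and 8.95, and the sh74 samples of Car5b were at 9.49 and 5.90.

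The CCR4-NOT subunits other than Cnot7 had differences of at most 0.58 in size. None of the 12, Cnot7 included here and in the counts that follow, was called (0 by limma, 3 at an unadjusted p under 0.05), 9 were higher and 3 lower with sh74, and the samples did not overlap at 9 of them (75%, against 22.5% of all probe sets). The median difference of the list was 0.13, against 0.0028 over all probe sets. Cnot6, a second kind of deadenylase in the complex, was at 10.46 and 10.36 with sh74, 9.98, 9.94 and 9.96 with sh75 and 10.26, 10.30 and 10.34 with shScramble (difference 0.45, SE 0.08, adjusted p = 0.0667). Cnot9, a subunit that contacts recruiting proteins, was at 10.30 and 10.65 with sh74, 9.91, 9.93 and 9.85 with sh75 and 10.58, 10.51 and 10.58 with shScramble (difference 0.58, SE 0.12, adjusted p = 0.119). Both were lowest in the sh75 samples. Cnot8, the paralog of Cnot7 that occupies the same place in the complex, was at 8.92 and 8.91 with sh74, 8.97, 9.15 and 9.0 with sh75 and 8.72, 8.97 and 8.996 with shScramble (difference -0.13, SE 0.12, adjusted p = 0.854). Cnot1, the scaffold, had a difference of 0.28 (SE 0.17, adjusted p = 0.708).

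The adaptors and partners that bring the complex to transcripts held no call either (0 by limma). Unadjusted p-values under 0.05 were reached by 2 of 5 BTG and TOB adaptors, 2 of 21 recruiting proteins, 4 of 38 other decay factors and 8 of 19 members of the small RNA machinery, beside 1946 of the 21789 probe sets. All 5 measured BTG and TOB adaptors were lower with sh74 by their means (median -0.12). Btg2 was at 5.90 and 6.16 with sh74, 6.84, 6.49 and 6.39 with sh75 and 6.18, 5.98 and 6.09 with shScramble (difference -0.54, SE 0.16, adjusted p = 0.274), and Tob1 had a difference of -0.55 (SE 0.20, adjusted p = 0.415). Among 21 RNA-binding proteins that recruit deadenylases, 6 were higher and 15 lower (median -0.037), and among 38 other deadenylases and decay factors 23 were higher and 15 lower (median 0.027). The machinery that makes and carries small RNAs, hairpins included, showed 12 of 19 members higher and 7 lower with sh74 (median 0.049), with no overlap of the samples at 36.8% of them, against 22.5% of all probe sets. Dicer1, which cuts hairpins, was at 10.04 and 10.01 with sh74, 9.49, 9.18 and 9.69 with sh75 and 9.49, 9.58 and 9.40 with shScramble (difference 0.57, SE 0.12, adjusted p = 0.128). Ago1 was at 9.21 and 9.02 with sh74, 8.43, 8.51 and 8.16 with sh75 and 8.56, 8.42 and 8.77 with shScramble (difference 0.75, SE 0.17, adjusted p = 0.143). Ago2, the Argonaute that cleaves its targets, was at 10.35 and 10.42 with sh74, 11.08, 11.01 and 11.09 with sh75 and 10.95, 10.89 and 10.99 with shScramble (difference -0.68, SE 0.17, adjusted p = 0.193). For these genes the sh74 samples stood apart from both other groups, Dicer1 and Ago1 above and Ago2 below, without passing the test over all probe sets.

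Other gene lists are given by counts and medians beside the whole, for which 11076 probe sets were higher and 10713 lower with sh74, with a median size of difference of 0.090. DNA replication genes were mostly higher with sh74 by their means (41 of 46, median 0.17, samples not overlapping at 23.9%, against 22.5% of all probe sets) and so were genes of mitosis and cytokinesis (26 of 31, median 0.095, 19.4%), among which Kif23 was called. The mean of the replication list was 9.54 and 9.73 in the sh74 samples, 9.57, 9.34 and 9.54 in the sh75 samples and 9.60, 9.59 and 9.66 in the shScramble samples, so that the hairpins overlapped, with sh74 replicate 2 the highest and sh75 replicate 2 the lowest. Mki67, the proliferation marker, was at 11.89 and 11.69 with sh74, 11.47, 11.20 and 11.26 with sh75 and 11.31, 11.36 and 11.49 with shScramble (difference 0.48, SE 0.10, adjusted p = 0.108). Proteasome subunits were mostly lower with sh74 (25 of 31, median -0.094, samples not overlapping at 35.5%), as were endoplasmic reticulum chaperones (18 of 24, median -0.13, 41.7%), both beside 22.5% of all probe sets, and neither list held a call (0 by limma, 4 and 5 at an unadjusted p under 0.05). The mean of the proteasome list was 10.28 and 10.33 with sh74, 10.34, 10.32 and 10.54 with sh75 and 10.47, 10.41 and 10.47 with shScramble, so that the hairpins overlapped and sh75 replicate 3 was the high one. Psmb3, a subunit of the proteolytic core, was at 9.96 and 9.88 with sh74, 10.34, 10.33 and 10.52 with sh75 and 10.39, 10.53 and 10.43 with shScramble (difference -0.48, SE 0.08, adjusted p = 0.0547). Sel1l and Sec61b, parts of the degradation and import machinery of the endoplasmic reticulum, had differences of -0.51 (SE 0.11) and -0.45 (SE 0.10), each with an adjusted p of 0.128. Hypoxia and glycolysis genes were lower at 22 of 34 (median -0.098), with Pfkl, a phosphofructokinase, at -0.37 (SE 0.08, adjusted p = 0.127).

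Interferon and RNA-sensing genes, which double-stranded RNA can induce, were higher with sh74 at 28 of 43 (median 0.16). Samples did not overlap at 16.3% of them, against 22.5% of all probe sets. None was called (0 by limma), and 2 reached an unadjusted p under 0.05, beside 1946 of the 21789 probe sets. The list mean was 7.30 and 7.47 with sh74, 7.325, 7.1 and 7.17 with sh75 and 7.03, 7.25 and 7.04 with shScramble. The hairpins thus overlapped. Ddx58, the sensor RIG-I, was at 8.77 and 8.73 with sh74, 7.55, 7.80 and 7.95 with sh75 and 8.71, 8.68 and 8.35 with shScramble (difference 0.98, SE 0.31, adjusted p = 0.330), so that the sh75 samples were the low ones. Of 12 antigen presentation genes, 4 were higher and 8 lower (median -0.19). Chemokines, cytokines and colony-stimulating factors had samples that did not overlap at 13 of 26 genes (50%, against 22.5% of all probe sets), 10 of them higher and 3 lower with sh74. Csf2, which encodes GM-CSF, was at 6.22 and 7.06 with sh74, 5.23, 4.94 and 4.97 with sh75 and 5.48, 5.97 and 5.31 with shScramble (difference 1.59, SE 0.48, adjusted p = 0.307). Vegfc, a lymphangiogenic factor, was at 6.18 and 6.46 with sh74, 8.01, 7.95 and 7.72 with sh75 and 8.55, 7.16 and 7.02 with shScramble (difference -1.57, SE 0.46, adjusted p = 0.279). In the TGF-beta pathway 10 members were higher and 14 lower, with Id3 at -0.92 (SE 0.20, adjusted p = 0.128) and Tgfb2, a ligand, at -1.27 (SE 0.28, adjusted p = 0.134). Of the basement membrane and integrin genes, 12 were higher and 15 lower, and Itgb5, an integrin subunit, had a difference of -0.91 (SE 0.18, adjusted p = 0.0954).

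Epithelial genes were higher with sh74 at 27 of 41 and mesenchymal genes at 13 of 37, with medians of 0.091 and -0.022 and no call in either list (0 by limma, 3 in each at an unadjusted p under 0.05). Samples did not overlap at 9.76% of the epithelial and 18.9% of the mesenchymal genes, against 22.5% of all probe sets. The split seen for Esrp1 ran within each hairpin. Cholesterol synthesis genes had no member at which the hairpins did not overlap (0 of 20, median 0.039). Their mean was 9.33 and 10.14 in the sh74 samples, 10.17, 9.69 and 9.29 in the sh75 samples and 10.12, 10.08 and 10.11 in the shScramble samples. Small nucleolar RNAs were lower with sh74 at 38 of 51 (median -0.19), with means of 7.93 and 8.79 in the sh74 samples, 8.73, 8.52 and 8.46 in the sh75 samples and 8.72, 8.74 and 8.66 in the shScramble samples, so that 1 sh74 sample was the low one. Markers of immune, endothelial, fibroblast and adipocyte cells held no call, with list means of 5.12 to 5.68 in the 8 hairpin samples.

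**Figure D5:**
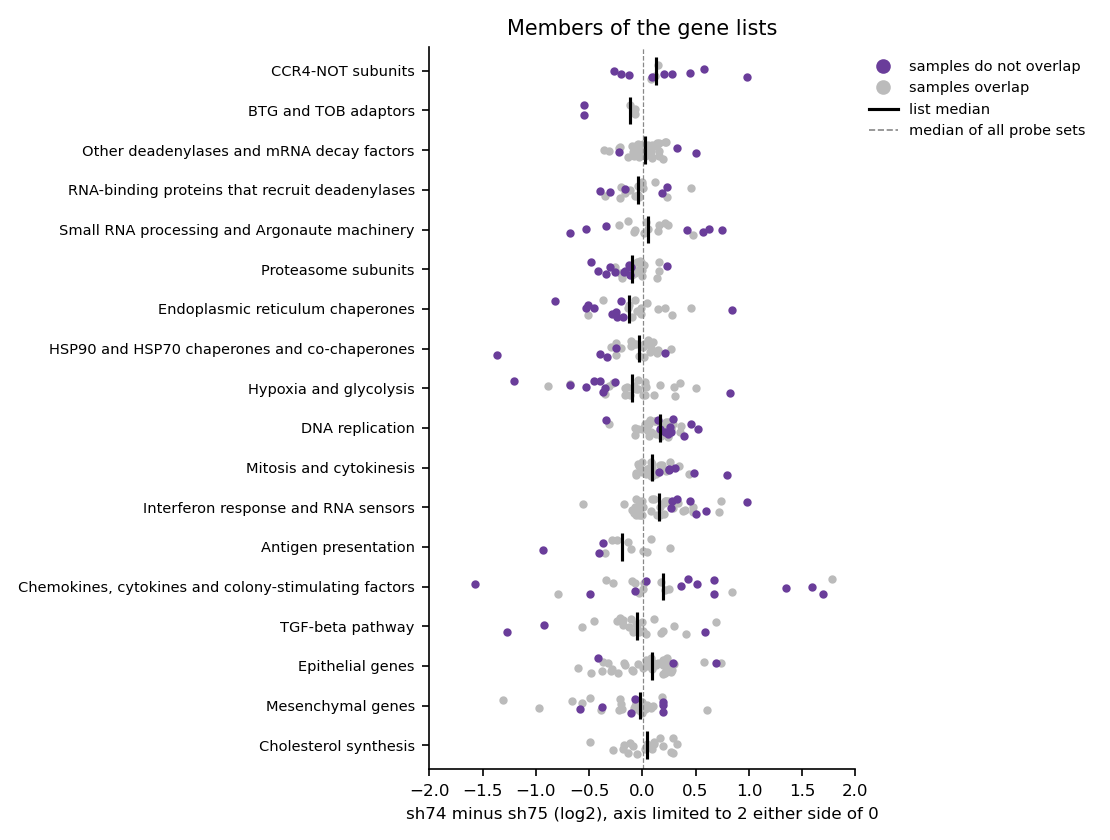
Differences between hairpins (x axis: sh74 minus sh75, log2) for each member of 18 of the 35 gene lists. Purple points are genes whose sh74 and sh75 samples did not overlap, black bars are list medians and the dashed line is the median of all probe sets; 2 members beyond the axis, Il1a and Ehf, are not shown. DNA replication had 41 of 46 members above 0, proteasome subunits 25 of 31 below it.

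The sample titles carry numbers whose meaning is not stated, and these separate the hairpins: both sh74 titles have 1 or 7, as do 2 of the vector control samples, while the sh75 titles have 4 or 5, as do the 3 CNOT7 over-expression samples and 2 of the 3 shScramble samples. The other shScramble title has 2, so that the shScramble level shares numbers with sh75 and none with sh74. If the number marks a batch, it cannot be told apart from a difference of sh74 from shScramble. Batch and hairpin cannot be told apart in a model with the number as a fixed block either, nor with it as a random block. The numbers of the sh74 and vector control samples (1, 6 and 7) occur in no other group. Vector control samples numbered 1 or 7 minus the over-expression samples numbered 4 or 5, groups that also differ in their CNOT7 construct, gave a median log2 difference of -0.057 over the 24 calls higher with sh74 (range -0.27 to 0.34), whose median between hairpins was 1.01. Over the 14 calls lower with sh74 that median was -0.07 (range -0.35 to 0.37), against -0.77 between hairpins. The direction was the same as between hairpins for 6 of the 24 and 9 of the 14.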

How the data were processed

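RNA of 14 samples of 4T1 cells was hybridised to Affymetrix Mouse Gene 1.0 ST arrays. Per the labels the authors used RMA as implemented in oligo (versions not given in the sources used here), which corrects background, equalises array distributions and summarises probes, and deposited log2 values, which were used without further normalization. Equalising distributions would remove a shift shared by all transcripts of an array.

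Groups came from the treatment labels. Of 35556 probe sets, 21789 paired with exactly 1 gene symbol (19938 genes, 999 with several probe sets) and were tested, while 1621 had several symbols and 12146 none. These 13767 were tested apart and held 0 calls (limma, smallest adjusted p = 0.0759, 1289 at an unadjusted p under 0.05). Of the tested probe sets, 21698 matched RefSeq names (GRCm38.p6) and 0 symbols needed updating. The annotation's build is not given in the sources used here, so no coordinates are printed.

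The difference sh74 minus sh75 was a contrast in 1 limma 3.58.1 model (R 4.3.3) of all 14 samples in 5 groups, so that 9 residual and 2.09 prior degrees of freedom set the spread. Tests were two-sided, with Benjamini-Hochberg adjustment over the tested probe sets, and an adjusted p under 0.05 was a call. SD is that of samples and SE that of the fitted difference, all on the log2 scale. A gene list was counted with 1 probe set per gene, that with the highest mean. Calculations were tested on simulated data. The number of arrays limited the precision.

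Named genes were Cnot7, up to 12 largest called rises and falls with samples that did not overlap and a higher group mean of at least 6, the 6 largest differences in each direction with such a mean, and 2 to 4 members with the smallest p per gene list, with Cnot1, Cnot8 and cell markers added as landmarks. Histone genes, olfactory receptors, predicted genes and small RNAs were only counted. The members, gene lists and rules were chosen with earlier results of these data known. Hairpin sequences came from the study's oligonucleotide table and miRNA seeds from RefSeq. Alternatives covered the samples fitted, dim probe sets, moderation, array weights, normalization, the methods' t-test, the title number, the cell state score and the omission of each hairpin sample.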

Additional observations from a re-analysis of the deposited data

Results flagged for a closer look

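The results below were picked out because the effects of the hairpins, each taken against shScramble, differed in the limma test of sh74 against sh75 and every sample of one hairpin lay above, and every sample of the other below, all shScramble samples. There were 21 such calls. The 19 given here were 15 higher and 4 lower with sh74; of these, Rbm41, Yipf6, Kif23, Xiap, Cbl, Maml2, Phlpp2, Zfyve16 and Naa38 were chosen after their values were seen. The other 2 were Gpr137b-ps and 9530068E07Rik. No group had enough samples for a search for outlying samples.

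The log2 difference sh74 minus sh75 was 1.85 for Gpr137b, 1.81 for Arl15, 1.74 for Tmem170b, 1.30 for Cpne3, 1.26 for Eogt, 1.12 for Lcor and 1.11 for Styk1. It was 0.993 for Yipf6, 0.967 for Maml2, 0.920 for Zfyve16, 0.873 for Cbl, 0.797 for Xiap, 0.792 for Kif23, 0.782 for Rbm41 and 0.773 for Phlpp2. It was -1.91 for Epha1, -0.788 for Stard5, -0.546 for Cyb561d2 and -0.430 for Naa38. A further probe set of Maml2 had a difference of 1.098 that did not pass (adjusted p = 0.173). In Gpr137b the effects against shScramble were 1.03 with sh74 and -0.82 with sh75, both called, and it was the 1 gene of the 19 for which this was so. In Xiap they were 0.45 and -0.35, in Maml2 0.63 and -0.34, and in Styk1 0.55 and -0.56, none of them called on its own.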

How the results depend on the processing

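The number of calls between hairpins depended on the samples fitted and on the test. The 38 calls became 14 with the 8 hairpin samples alone (11 of the 38 kept), 0 with the 5 sh74 and sh75 samples alone (limma, 1492 at an unadjusted p under 0.05), 11 with array weights, 0 by the methods' t-test with Benjamini-Hochberg adjustment (964 at an unadjusted p under 0.05) and 63 with the cell state score as a covariate (36 of the 38 kept). They numbered 27 to 41 under trend and robust moderation, the omission of dim probe sets, median centring, quantile normalization, the title number as a random block (35, all among the 38) and 1 probe set per gene. The random block cannot remove a batch effect from this difference, because sh74 and sh75 share no title number. Of 36 called genes with names, 24 stayed called under trend and robust moderation, 31 with median centring and 33 with quantile normalization. Dnmt3a, Ppp2r1b, Dcaf12 and Cyb561d2 were lost under both of the first 2. Leaving out 1 sample gave 12 (without shScramble replicate 2) to 53 (without sh74 replicate 2), and of those 53 only 13 were among the 38. Where 1 sh74 sample was left, it was taken to vary like the other groups. The causes were not tested, beyond the smaller number of samples that the first settings have by construction.

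The direction of Cnot7, of the called genes with names and of the largest differences was kept in every alternative run. Their sh74 and sh75 samples do not overlap, so leaving out 1 sample could not reverse it. Settings that change only the spread, such as the hairpin samples alone or the methods' t-test, leave the difference itself unchanged. The Cnot7 difference was 0.67 to 1.30 with 1 sample left out and passed in none. The title number as a fixed block was not run. The numbers of the sh74 and vector control samples (1, 6 and 7) occur in no other group, so the difference between hairpins could not be estimated. List medians moved by more than the spread between samples in 30 of 198 alternatives. No paired analysis of sh74 against sh75 was run, because no label pairs their samples and their titles share no number. The sh75 and shScramble samples share title numbers of unstated meaning and were not paired either.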
